A study of Mus musculus with 16 samples.

Results

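The 6 trace amine-associated receptor genes Taar2, Taar3, Taar4, Taar5, Taar6 and Taar9 were examined, chosen by the gene symbols of the array annotation as the listed Taar genes outside the Taar7 and Taar8 subfamilies. They are 6 of the 19505 named genes measured, each with 1 probe set among the 22206 tested, and the array carried 15 Taar genes in all, namely these 6, Taar1, and 8 Taar7 and Taar8 paralogs. The mice were C57BL/6 S100a5-tauGFP animals of both sexes aged 7 to 12 weeks, in which the promoter of S100a5, a calcium-binding protein gene transcribed in active mature olfactory sensory neurons, drives green fluorescent protein (GFP) fused to tau. All 24 mice were housed singly in chambers of clean flowing air for 40 h. From 26 h on, some received undecanal, a fatty aldehyde odorant, and the others filtered air as vehicle, in pulses of 10 s every 20 min. The olfactory mucosa of 3 mice was pooled and sorted by fluorescence, so that 4 undecanal pools and 4 vehicle pools each gave 1 array titled GFP+ and 1 titled GFP-, 16 Clariom S arrays in 4 groups of 4. Such an assay looks for receptors whose mRNA is enriched among cells in which an odorant has switched the reporter on. No label states the undecanal concentration.

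The GFP sign in the sample characteristics is the opposite of that in the title for 16 of 16 arrays, and every direction given here is that of the titles. S100a5 itself was lower in arrays titled GFP+ than in those titled GFP-, with a log2 difference of -0.97 in undecanal pools (SE 0.167, limma adjusted p = 3.94e-04) and of -0.91 in vehicle pools (SE 0.167, limma adjusted p = 7.15e-04). Those values go against the titles, and a fraction difference below would turn sign if the characteristics hold, whereas an undecanal effect within a fraction would not. Omp, the standard marker of mature olfactory neurons, averaged between 18.80 and 18.85 in the 4 groups. The 16 arrays held no pair with identical values. Their number limits the precision, and p-values measure the spread between pools.

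Trace amine-associated receptors are G protein-coupled receptors related to the receptors for biogenic amines. In the nose they act as a small second family of olfactory receptors beside the odorant receptors: most detect volatile amines, each sensory neuron expresses mainly a single receptor gene, and the neurons lie largely in the dorsal epithelium and signal through the same olfactory G protein and adenylyl cyclase as odorant receptor neurons. Taar1 is the exception, a receptor of the brain and other organs that is not used by olfactory neurons. Known mouse ligands include isoamylamine for Taar3, phenylethylamine for Taar4 and trimethylamine, a component of male mouse urine, for Taar5. Undecanal is not an amine.

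The genes form 1 cluster on chromosome 10. The first 50 bases of the RefSeq gene models (GRCm38.p6) are shown for the 5 members that the sequence table holds, because how unlike these genes are bears on whether probe sets can share signal, and for the paralogs Taar7b and Taar7d as a contrast. Each is written 5′ to 3′ on the gene's own strand, and the capitals mark the ATG with which each model begins.
Taar2 (chr10:23938572-23938621, plus strand): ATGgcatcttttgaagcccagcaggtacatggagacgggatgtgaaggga
Taar3 (chr10:23949558-23949607, plus strand): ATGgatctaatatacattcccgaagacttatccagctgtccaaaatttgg
Taar5 (chr10:23970706-23970755, plus strand): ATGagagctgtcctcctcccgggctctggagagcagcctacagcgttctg
Taar6 (chr10:23985597-23985646, minus strand): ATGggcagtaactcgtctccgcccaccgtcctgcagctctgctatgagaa
Taar9 (chr10:24109485-24109534, minus strand): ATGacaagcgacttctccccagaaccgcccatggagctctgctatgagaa
Taar7b (chr10:23999939-23999988, plus strand): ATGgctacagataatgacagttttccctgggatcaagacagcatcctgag
Taar7d (chr10:24027222-24027271, plus strand): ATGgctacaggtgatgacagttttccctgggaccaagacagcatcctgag

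Compared position by position without gaps, Taar7b and Taar7d matched at 47 of these 50 bases. Over the 10 pairs of members the matches ran from 11 to 32 of 50, and the highest count was that of Taar6 with Taar9. No other pair of members exceeded 18. The ATG that begins every stretch is part of each count, and 50 ungapped bases do not measure how alike the whole genes are. The Taar2 model spans 3012 bases because the gene has an intron, unlike the other members, whose models of 1014 to 1047 bases are single coding exons. Read from its ATG, the printed Taar2 stretch reaches an in-frame stop (tga), so it runs past the first coding exon. Counts for pairs with Taar2 thus include bases outside its coding sequence. The positions that the probes cover were not used here.

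Between the sort fractions, the single-copy genes split into a pair that was higher in arrays titled GFP+ and a set that was lower there. Taar2 and Taar6 were higher with both agents, and Taar3, Taar4 and Taar9 were lower with both. In undecanal pools 5 of 6 members passed in limma with Benjamini-Hochberg adjustment over all probe sets at 0.05, 2 higher and 3 lower, against 13.2% of all probe sets (8.83% higher and 4.36% lower) and 57.8% of the 1091 odorant receptors (24.2% higher and 33.6% lower). In vehicle pools 6 of 6 passed, 2 higher and 4 lower, against 13.9% of all probe sets (8.82% higher and 5.12% lower) and 58.8% of odorant receptors (22.6% higher and 36.1% lower). The split of all probe sets depended on the scaling: 1960 were higher and 969 lower with undecanal, and 1959 and 1138 with vehicle, against 1584 and 11129, and 1570 and 11231, once arrays were centred on their medians. Under that centring 2 members were higher and 4 lower with either agent. Called differences in both directions were thus common among odorant receptors. The median difference of the 6 members was -1.37 on the log2 scale in undecanal pools and -1.64 in vehicle pools, beside -0.11 in each for all probe sets, but a median does not describe genes that moved both ways.

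**Figure D1:**
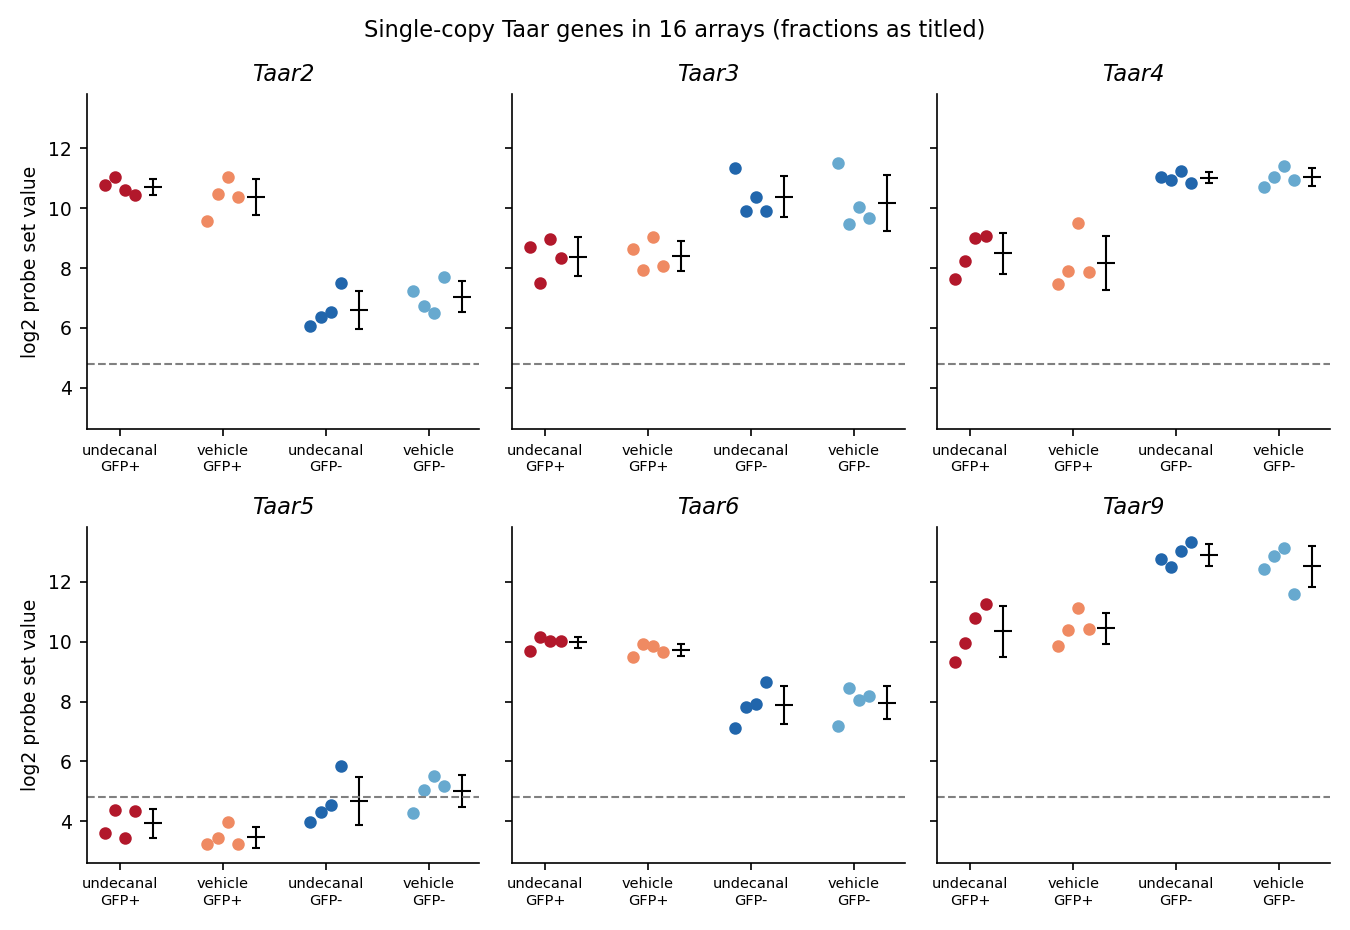
Log2 probe set value (y axis) of each single-copy Taar gene in the 4 groups as titled (x axis), with 1 point per array, the mean and SD (bar, n = 4) beside them, and the background level of 4.80 as a dashed line. Taar2 and Taar6 lie higher in both groups titled GFP+, Taar3, Taar4 and Taar9 lie higher in both groups titled GFP-, and Taar5 stays near the dashed line.

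Taar2 showed the widest gap of the 6 members. With undecanal it measured 10.76, 11.05, 10.59 and 10.42 on the log2 scale in arrays titled GFP+ of pools 1 to 4, against 6.05, 6.35, 6.53 and 7.52 in those titled GFP-. With vehicle it measured 9.58, 10.47, 11.06 and 10.37 in arrays titled GFP+, against 7.23, 6.74, 6.51 and 7.71 in those titled GFP-. The lowest array titled GFP+ stood well above the highest titled GFP- with either agent. Taar2 was higher by 4.10 (SE 0.331, limma adjusted p = 4.70e-08) in undecanal pools, a 17.1-fold difference, and by 3.32 (SE 0.331, limma adjusted p = 6.61e-07) in vehicle pools, a 9.98-fold difference. Among the 1091 odorant receptors, 68 had a larger positive difference than Taar2 in undecanal pools and 97 in vehicle pools.

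Taar6, the other member that was higher, differed less. With undecanal its arrays titled GFP+ measured 9.69, 10.17, 10.01 and 10.03 on the log2 scale in pools 1 to 4, against 7.12, 7.82, 7.92 and 8.65 in those titled GFP-. With vehicle they measured 9.50, 9.93, 9.85 and 9.65, against 7.18, 8.45, 8.04 and 8.18 in those titled GFP-. The groups did not overlap with either agent, and the spread was smaller in arrays titled GFP+ (SD 0.199 with undecanal and 0.194 with vehicle) than in those titled GFP- (SD 0.626 and 0.549). The difference was 2.09 (SE 0.279, limma adjusted p = 2.39e-05) in undecanal pools, or 4.26-fold, and 1.77 (SE 0.279, limma adjusted p = 1.53e-04) in vehicle pools, or 3.41-fold.

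Taar4, the phenylethylamine receptor, was lower in arrays titled GFP+. With undecanal it measured 7.65, 8.23, 9.01 and 9.07 on the log2 scale in arrays titled GFP+ of pools 1 to 4, against 11.06, 10.94, 11.26 and 10.85 in those titled GFP-. With vehicle the values were 7.45, 7.89, 9.50 and 7.87 in arrays titled GFP+, against 10.71, 11.06, 11.42 and 10.93 in those titled GFP-. Its level was tight in arrays titled GFP- (SD 0.176 with undecanal and 0.298 with vehicle) and loose in those titled GFP+ (SD 0.677 and 0.906), and the groups stayed apart. The difference was -2.54 (SE 0.364, limma adjusted p = 5.55e-05) in undecanal pools, a 5.80-fold lower level, and -2.85 (SE 0.364, limma adjusted p = 1.44e-05) in vehicle pools, a 7.22-fold lower level.

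Taar9 followed the same direction. With undecanal its arrays titled GFP+ measured 9.33, 9.96, 10.80 and 11.27 on the log2 scale in pools 1 to 4, against 12.76, 12.49, 13.03 and 13.32 in those titled GFP-. With vehicle they measured 9.86, 10.38, 11.13 and 10.41, against 12.43, 12.88, 13.14 and 11.60 in those titled GFP-. All 8 arrays titled GFP+ lay below all 8 titled GFP-. The difference was -2.56 (SE 0.387, limma adjusted p = 9.80e-05) in undecanal pools and -2.07 (SE 0.387, limma adjusted p = 8.67e-04) in vehicle pools, 5.89-fold and 4.20-fold lower. Taar6 and Taar9, the 2 members whose printed starts are most alike, thus differed between fractions in opposite directions.

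Taar3, the isoamylamine receptor, was also lower in arrays titled GFP+. With undecanal it measured 8.72, 7.50, 8.97 and 8.34 on the log2 scale in arrays titled GFP+ of pools 1 to 4, against 11.36, 9.90, 10.38 and 9.91 in those titled GFP-. With vehicle it measured 8.63, 7.95, 9.02 and 8.07 in arrays titled GFP+, against 11.51, 9.46, 10.03 and 9.67 in those titled GFP-. In pool 1 of each agent the array titled GFP- was the highest of its group, and the groups did not overlap. The difference was -2.01 (SE 0.429, limma adjusted p = 0.00293) in undecanal pools, 4.02-fold lower, and -1.75 (SE 0.429, limma adjusted p = 0.0085) in vehicle pools, 3.37-fold lower.

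Taar5, the trimethylamine receptor, was barely detected. Background was set at 4.80 on the log2 scale, from vomeronasal and bitter receptor genes, which olfactory neurons are not known to express: 95% of the group means of their 358 probe sets lie below it. With undecanal Taar5 measured 3.60, 4.37, 3.44 and 4.34 in arrays titled GFP+ of pools 1 to 4, against 3.99, 4.33, 4.54 and 5.83 in those titled GFP-. With vehicle it measured 3.23, 3.44, 3.97 and 3.25 in arrays titled GFP+, against 4.28, 5.06, 5.52 and 5.18 in those titled GFP-. It thus exceeded background in 0 of 8 arrays titled GFP+, in 1 of 4 titled GFP- with undecanal and in 3 of 4 titled GFP- with vehicle. The vehicle difference passed (-1.54, SE 0.350, limma adjusted p = 0.0049). As the lower group lay below background, its level and the fold size of this difference are not known. The mean of vehicle arrays titled GFP- was 5.01 (SD 0.525), 1.15-fold above background, an estimate and not a minimum. The undecanal difference of -0.73 (SE 0.350, limma adjusted p = 0.211) did not pass and the groups overlapped, and both means were below background. The other 5 members were above background in 16 of 16 arrays.

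**Figure D2:**
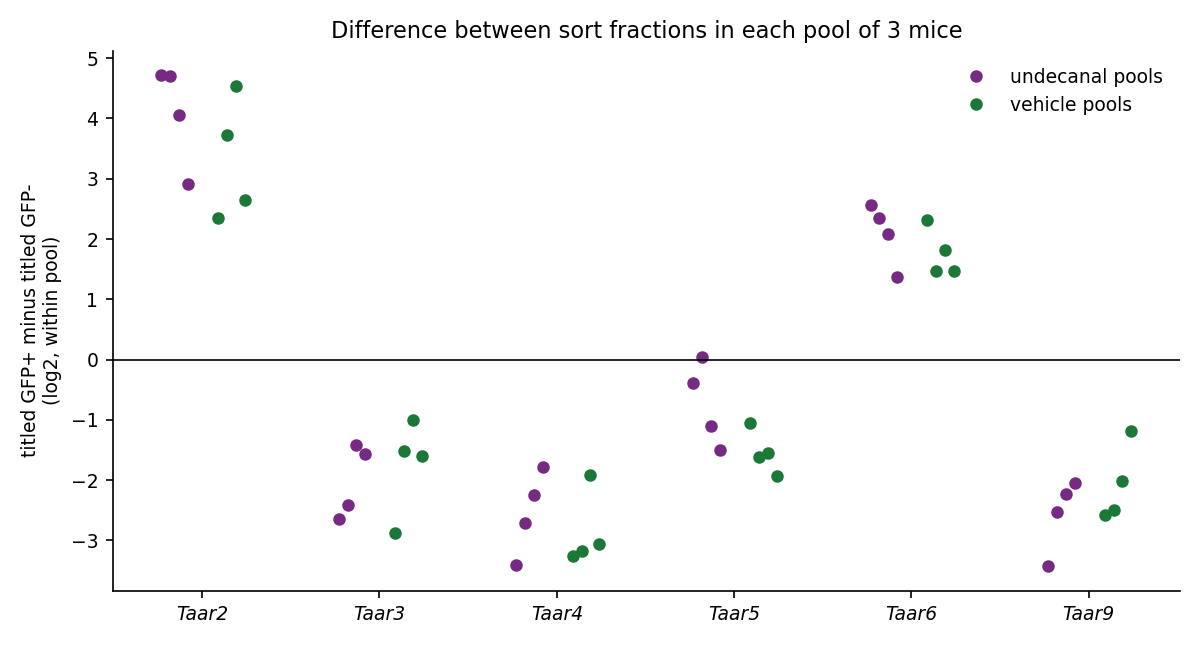
Difference between the array titled GFP+ and the array titled GFP- of the same pool (log2, y axis) for each gene (x axis), with 1 point per pool of 3 mice and colour for the agent. Taar2 and Taar6 are above 0 in 8 of 8 pools, Taar3, Taar4 and Taar9 below 0 in 8 of 8, and Taar5 below 0 in 7 of 8.

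Within pools, where both fractions came from the same mice, the direction was the same in 8 of 8 pools for 5 members. The within-pool difference ran from 2.35 to 4.72 for Taar2 and from 1.37 to 2.57 for Taar6. It ran from -3.41 to -1.78 for Taar4, from -3.43 to -1.19 for Taar9 and from -2.88 to -1.0 for Taar3. For Taar5 it ran from -1.93 to 0.04, with undecanal pool 2 as the pool above 0. The groups of 4 arrays did not overlap for 5 of 6 members with undecanal and for 6 of 6 with vehicle, against 17.3% and 18.1% of all probe sets and 57% and 55.1% of odorant receptors.

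The fractions also differed in their cells, and in such sorted bulk RNA more cells of a type cannot be told apart from more mRNA per cell. With either agent all 8 immune markers measured were called higher in arrays titled GFP+. Of all probe sets 8.83% were called higher with undecanal and 8.82% with vehicle. The summed signal of the markers lay between 16.70 and 17.56 (log2) in arrays titled GFP+, against 7.64 to 8.31 in arrays titled GFP-, in undecanal pools. In vehicle pools it lay between 16.90 and 17.60, against 7.61 to 8.29 in arrays titled GFP-. In arrays titled GFP- the means of 5 of the 8 immune markers with undecanal and 3 of 8 with vehicle were below background. TAAR1 and TAAR2 mRNA has been reported in human white blood cells. Taar1 lay below background in all 4 groups here, with means from 3.68 to 4.17, and the part of immune cells in the Taar2 and Taar6 differences was not tested.

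Markers of other cells moved with the fractions too. Beside the counts that follow, 8.83% of all probe sets were called higher and 4.36% lower with undecanal. With vehicle the shares were 8.82% and 5.12%. Of 6 immature neuron markers 3 were higher in arrays titled GFP+ with undecanal and 4 with vehicle, led by Gng8, a G protein subunit of young olfactory neurons (log2 difference 3.91 with undecanal and 4.39 with vehicle). Their summed signal overlapped, from 17.38 to 17.46 in arrays titled GFP+ against 17.23 to 17.63 in those titled GFP- with undecanal, and from 17.37 to 17.53 against 17.26 to 17.43 with vehicle. Of 5 sustentacular cell markers 4 were higher with either agent, with summed signal from 15.69 to 16.67 against 13.55 to 14.55 with undecanal and from 15.45 to 16.43 against 12.69 to 14.43 with vehicle. Of 5 basal and cycling cell markers 4 were higher with undecanal and 3 with vehicle, and their summed signal ran from 9.65 to 11.26 against 7.12 to 7.29 and from 9.98 to 11.07 against 6.88 to 7.40. With either agent, the means of 2 of these 5 lay below background in arrays titled GFP+ and of 3 in those titled GFP-. Of 14 mature neuron markers 3 were lower with either agent (Pde1c, Slc24a4 and Ano2, all of the transduction machinery), with log2 differences from -0.65 to -0.41. The activity-raised list, made of genes that olfactory neurons transcribe more when active, was lower in arrays titled GFP+ in 4 of 5 genes with undecanal and 5 of 5 with vehicle, the same direction as Taar3, Taar4 and Taar9 and opposite to Taar2 and Taar6. Of 4 guanylate cyclase D neuron genes 2 were higher with undecanal, Pde2a (3.43) and Car2 (0.55), and 1 with vehicle, Pde2a (3.43). Gucy2d and Cnga3 were called with neither agent, and 2 of the 4 genes had means below background in every group. Of 2 vomeronasal neuron genes measured Gnai2, which immune cells also express, was higher with both (5.09 with undecanal and 5.72 with vehicle). The part of these cells in the Taar differences was not tested.

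**Figure D3:**
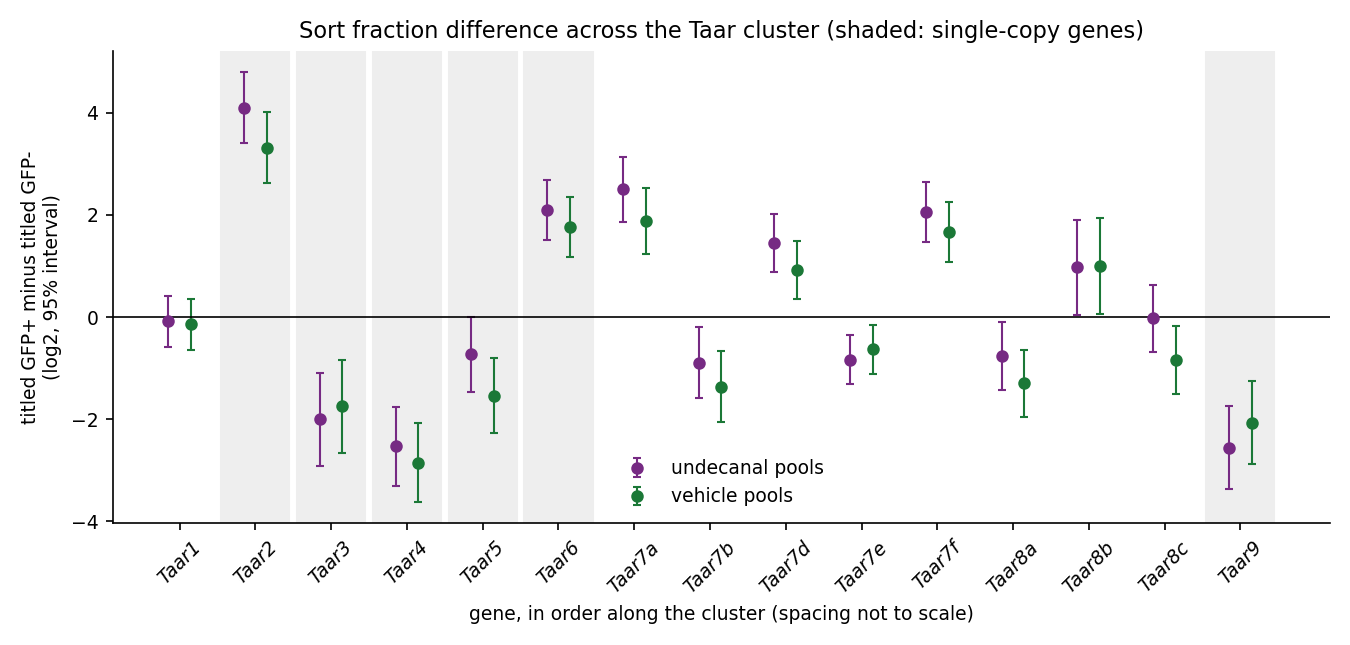
Difference between fractions, titled GFP+ minus titled GFP- (log2, limma estimate with 95% interval, y axis), for the 15 Taar genes in their order along the chromosome 10 cluster (x axis, not to scale), with single-copy genes shaded and colour for the agent. Genes above 0 and genes below 0 are interspersed along the cluster, and both Taar1 intervals include 0.

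Neighbours in the cluster often differed in direction. In RefSeq order Taar1 comes first, then Taar2, Taar3, Taar4, Taar5, Taar6, the Taar7 and Taar8 genes, and Taar9. Taar2 was higher in arrays titled GFP+ while its next neighbour Taar3 was lower, and Taar6 was higher while Taar4, just beyond Taar5, was lower. Among the 8 Taar7 and Taar8 paralogs, 3 were called higher with either agent (Taar7a, Taar7d and Taar7f). A lower level was called for Taar7e with undecanal, and for Taar7b and Taar8a with vehicle. In either direction 4 of the 8 were called with undecanal, beside 57.8% of odorant receptors and 13.2% of all probe sets. With vehicle 5 of the 8 were called, beside 58.8% and 13.9%. The paralog differences ran from -0.90 to 2.50 with undecanal and from -1.36 to 1.88 with vehicle. That was a narrower range than the -2.56 to 4.10 and -2.85 to 3.32 of the single-copy genes, and the difference in range was not tested. Group means of the Taar8 genes, from 4.73 to 6.35, lay near the background of 4.80, which can limit their differences. Since Taar7b and Taar7d matched at 47 of their first 50 bases, their probe sets may share signal, which was not checked. The starts of the other Taar7 genes were not compared.

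Genes known to shape receptor expression were called about as often as probe sets in general. Of 12 genes of receptor choice and trafficking 1 was higher with undecanal and 2 with vehicle, and none was lower, beside the 13.2% and 13.9% of all probe sets called in either direction. These were Lbr, the lamin B receptor, whose loss in olfactory neurons lets silent receptor genes gather in the nucleus (0.99, SE 0.137, limma adjusted p = 3.61e-05 with undecanal, and 1.07, SE 0.137, limma adjusted p = 1.52e-05 with vehicle), and, with vehicle, Cbx5, a heterochromatin protein (0.72, SE 0.212, limma adjusted p = 0.0297). Of the 4 dorsal zone genes and the 5 ventral zone genes none passed with either agent, among them Robo2, a guidance receptor of dorsal axons (0.51 with undecanal and 0.22 with vehicle), and Ncam2, an adhesion molecule of ventral neurons (-0.21 and -0.40). Their medians were -0.02 and -0.16 with undecanal, and 0.12 and -0.14 with vehicle. Of 11 genes of amine metabolism measured, Fmo1, a flavin monooxygenase that oxidises amines, was higher with undecanal (0.85, SE 0.228, limma adjusted p = 0.0161), and none passed with vehicle. A single gene of 11 is close to the 8.83% of all probe sets called higher with undecanal. In each of the 4 groups 5 of the 11 had means below background, which can limit their differences.

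Undecanal was not shown to change any of the 6 genes within a fraction. In arrays titled GFP+ 0 of 6 members passed in limma, none had an unadjusted p under 0.05, and 0.0045% of all probe sets passed. In arrays titled GFP- 0 of 6 passed, 0 had an unadjusted p under 0.05 and 0% of all probe sets passed. No member's undecanal arrays stood clear of its vehicle arrays in either fraction, while 1.87% of all probe sets and 1.19% of odorant receptors did so in arrays titled GFP+, and 2.2% and 1.74% in those titled GFP-.

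**Figure D4:**
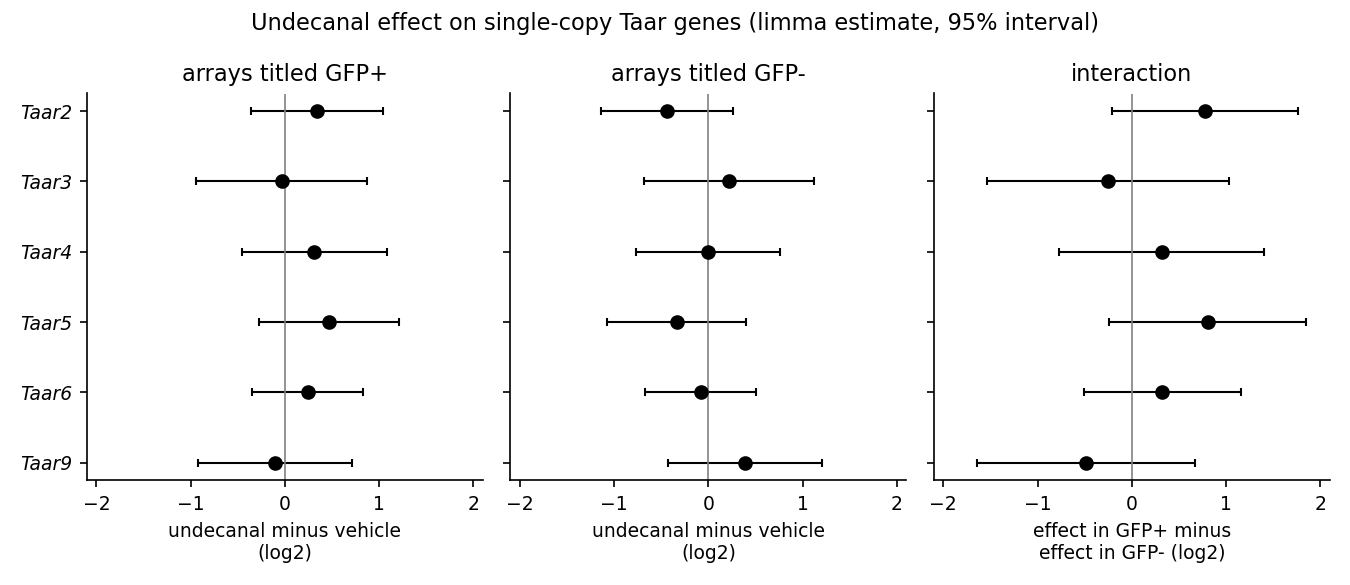
Undecanal minus vehicle (log2, x axis, limma estimate with 95% interval) for the single-copy Taar genes (y axis) in arrays titled GFP+ and in arrays titled GFP-, and the difference of these effects (right). Every interval includes 0.

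In arrays titled GFP+ the largest effect was that of Taar5 (0.47, 95% interval -0.27 to 1.21), a gene below background in both groups. Taar2 averaged 10.71 ± 0.267 with undecanal and 10.37 ± 0.608 with vehicle (SD, n = 4 each), a difference of 0.34 (95% interval -0.36 to 1.04). The intervals were -0.46 to 1.08 for Taar4 around 0.31 and -0.35 to 0.83 for Taar6 around 0.24. They were -0.94 to 0.87 for Taar3 around -0.03 and -0.92 to 0.71 for Taar9 around -0.10. Each limma adjusted p was 0.999. The upper bounds, of about 1 on the log2 scale, leave room for changes that these 4 arrays per group would not resolve.

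In arrays titled GFP- Taar2 averaged 6.61 ± 0.636 with undecanal and 7.05 ± 0.533 with vehicle (SD, n = 4 each), a difference of -0.44 (95% interval -1.14 to 0.26). Taar9 differed by 0.39 (95% interval -0.43 to 1.20) and Taar5 by -0.34 (95% interval -1.07 to 0.40). Taar3 differed by 0.22 (95% interval -0.69 to 1.12) and Taar6 by -0.08 (95% interval -0.67 to 0.51). Taar4 had nearly the same mean, 11.02 ± 0.176 with undecanal and 11.03 ± 0.298 with vehicle (SD, n = 4 each), with an interval of -0.77 to 0.76. Each limma adjusted p was 1.0.

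The interaction asked whether the difference between fractions changed with undecanal, and 0 of 6 members passed in limma, as did 0% of all probe sets. It was 0.80 for Taar5 (95% interval -0.24 to 1.85) and 0.78 for Taar2 (95% interval -0.21 to 1.76). It was 0.32 for Taar4 (95% interval -0.77 to 1.40) and 0.32 for Taar6 (95% interval -0.51 to 1.16). It was -0.25 for Taar3 (95% interval -1.53 to 1.03) and -0.49 for Taar9 (95% interval -1.64 to 0.67). None had an unadjusted p under 0.05. In the 4 lists of zone, receptor choice and amine metabolism genes 0 genes passed for undecanal within a fraction or for the interaction, and the same held for the cell marker lists apart from Pcdh10, an activity-raised protocadherin that passed in arrays titled GFP+ (limma adjusted p = 0.00205, difference 1.91, SE 0.218).

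For Taar2 and Taar6 both groups titled GFP+ had higher means than both groups titled GFP-, and for Taar3, Taar4 and Taar9 both groups titled GFP- had the higher means. Taar5, with 3 of its 4 group means below background, is given no order. Within a fraction, the undecanal and vehicle groups came from different pools of mice, and they differed by less than the test could separate.

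The genes with the pattern most like each member were found by Pearson's r over the 16 arrays. The 12983 candidates were named probe sets outside the Taar family with at least 1 group mean above background. Since the arrays fall into 2 clusters by fraction, r mostly records the fraction difference for a member whose fraction difference is large. The closest to Taar2 were Hp (r = 0.98), Ampd3 (0.98) and Tnf (0.97), and to Taar6 Lbp (0.96), Ifi211 (0.96) and Cfp (0.95). Odorant receptors came closest to 3 of the members that were lower, namely Olfr160, Olfr46 and Olfr527 for Taar4 (0.98, 0.97 and 0.97), Olfr1157, Olfr1340 and Olfr222 for Taar9 (0.96 each) and Olfr851, Olfr373 and Olfr348 for Taar3 (0.92 each). For Taar5 they were Slc41a1 (0.90), Pcdh7 (0.89) and Serpina1a (0.87), of which only Pcdh7 was called between fractions. The mean of the 6 members, in which opposite fraction differences partly cancel, was most like 2610524H06Rik (0.92), E130309D02Rik (0.86), Helq (0.86), Accs (0.86) and Bcl2l2 (0.85). Among these genes only Bcl2l2 was called between fractions, and only with vehicle. After group means were removed, r between members ran from -0.77 (Taar3 with Taar6) to 0.81 (Taar5 with Taar6) over 15 pairs, with a median of 0.21 and 0.77 for Taar4 with Taar9. The values for Taar5 rest mostly on arrays at background, since it exceeded that level in 4 of 16. Those values are a description over 16 arrays, and members read from 1 array share its scaling.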

How the data were processed

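The authors deposited log2 summaries, 1 per probe set, of Clariom S arrays. The submitters' processing notes name Affymetrix Expression Console, and neither its summary method nor a version or build is given in the sources used here. Of 28846 rows, 6640 control rows were left out. Gene symbols came from the platform annotation, and all 19572 named probe sets matched RefSeq gene identifiers (GRCm38.p6). A single model of 4 group means, by title, was fitted to 16 arrays and 22206 probe sets in limma 3.58.1 (lmFit and eBayes, R 4.3.3), with no block, so both fractions of a pool count as independent. It gave 5 contrasts, each with Benjamini-Hochberg adjustment over the whole table and a threshold of 0.05. The fit was tested on simulated data, for the undecanal contrast in arrays titled GFP+ only and with independent arrays. That test does not cover the fraction differences or the pairing within pools.

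Both fractions of a pool come from the same mice, since 24 mice in groups of 3 make 8 pools. Deviations from the group means gave r of 0.050 to 0.271 for such pairs, above 0.1 in 6 of the 8 pools. Same-numbered pools of different agents (r from -0.042 to 0.291) are not paired. Named were the 6 members always, the nearest genes by r, and from each list up to 4 called genes by size or else the 2 with the smallest p, of which the text gives part. Where a gene had several probe sets, the probe set with the highest mean was used. A list's summed signal is the log2 of its summed linear values. Members and lists were chosen with earlier results of these data known. Alternatives covered scaling, filtering, prior variance, array weights, blocks, the groups fitted and left-out pools.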

Additional observations from a re-analysis of the deposited data

How the results depend on the processing

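Between fractions, 11 changes of scaling, filter, prior variance, weights, block or fitted groups and 8 left-out pools were tried. Taar2, Taar3, Taar4, Taar6 and Taar9 passed in the same direction every time, with either agent. Only the 4 left-out pools of the same agent could move a fraction difference. Leaving out a pool of the other agent kept the difference and changed only its SE and p. Taar5 passed in vehicle pools every time, and in undecanal pools only with arrays centred on their median (-1.09, limma adjusted p = 0.02), where 6 rather than 5 members passed. That centring moved the median fraction difference of all probe sets to -0.46 with undecanal and -0.47 with vehicle, from -0.11 in each, and centring on mature neuron genes to 0.12 and 0.15. The least secure calls were Taar3 without vehicle pool 1 (-1.38, limma adjusted p = 0.0446) and Taar5 without vehicle pool 4 (-1.40, limma adjusted p = 0.0423). With the pool as a replicate block, random or fixed, the counts were 5 and 6, as without it, and Taar3 in vehicle pools stayed at -1.75 (limma adjusted p = 0.00295 and 0.00155), and the block changed no other call. No member passed for undecanal or the interaction under any alternative, and small effects changed sign. In arrays titled GFP+, Taar3 was 0.0584 with array weights and from -0.23 to 0.26 with a pool left out, and Taar9 from -0.41 to 0.23. In arrays titled GFP-, Taar4 was 0.0211 with mature neuron centring, 0.12 with odorant receptor centring, 0.0317 with array weights and from -0.11 to 0.13 with a pool left out. Taar6 was 0.046 with odorant receptor centring and from -0.34 to 0.17 with a pool left out, and Taar3 from -0.10 to 0.67. Taar5 is limited by the background level. None of 24 groups of 4 arrays held a member value apart from the others by Dixon's criterion.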
